A study of Mus musculus with 8 samples.

Results

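The 8 genes described here encode 5 caspases (Casp2, Casp6, Casp8, Casp9 and Casp12) and 3 proteins that control caspases from or around the mitochondrion (Cycs, Diablo and Xiap). They were chosen by name, and all 8 were found among the 21879 genes of the table and passed the filter on low counts. RNA sequencing after poly(A) selection measured transcript levels in TCMK-1, a line of transformed tubule epithelium from mouse kidney. Control libraries came from cells with a control shRNA, labelled smgGDS control, and knockdown libraries from cells with an shRNA against smgGDS, the product of Rap1gds1 and a guanine nucleotide exchange factor and chaperone of small GTPases. The 4 control and 4 knockdown libraries all came from cells given 20 µM cisplatin, a platinum compound that damages DNA and is toxic to tubule cells. No library from cells without the drug was analysed here, so the comparisons below are between knockdown and control cells that both received it. The labels do not say whether the knockdown line is 1 clone or whether the libraries of a group are separate cultures, so p-values reflect only how these samples vary, and that variation may be technical.

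Caspases are cysteine proteases made as inactive precursors and switched on mainly by clustering and cleavage, so the amount of their mRNA is not a measure of their activity. Initiator caspases respond to upstream complexes: caspase-8 to death receptors, caspase-9 to the apoptosome that cytochrome c nucleates with Apaf1, and caspase-2 to the PIDDosome. Caspase-6 is counted among the executioners, and caspase-12 is tied to the endoplasmic reticulum in rodents. Damage to the outer mitochondrial membrane releases cytochrome c (Cycs) and Smac (Diablo), and Smac displaces the inhibitor XIAP (Xiap) from caspases. In cisplatin injury of the tubule, the mitochondrial, death receptor and endoplasmic reticulum routes to caspase activation have all been studied.

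The 5 caspase genes are related, and the coding stretch around the catalytic cysteine is shown because it is the part they share. Each line below gives 27 bases from a GENCODE M21 transcript, 5′ to 3′, with the codon of the catalytic cysteine in capitals.
Casp2: ttcatccaagcaTGTcgtggagatgag
Casp8: ttcattcaggctTGCcaaggaagtaac
Casp9: ttcatccaggccTGCggtggtgagcag
Casp6: atcatccaggccTGTcggggtagccag
Casp12: atcatgcaggccTGCagaggcagatat
Casp4: attgtgcaggccTGCagaggtgggaac
Against Casp12, the number of identical bases in this stretch was 14 for Casp2, 17 for Casp9, 18 for Casp8, 19 for Casp6 and 20 for Casp4, which is not one of the 8 genes and lies beside Casp12 in the genome. The expected counts of all 5 caspases were whole numbers in every library. Diablo is the 1 gene of the 8 whose counts were not whole, as was so for 1759 of the 11576 tested genes, and it is less certain. It overlaps B3gnt4, which is on the opposite strand in GENCODE M21, and whether counting used strand is not known from the labels or headers. The part of this overlap in the counts was not tested.

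Total expected counts ranged from 11560977 to 16059158 in the controls and from 12746051 to 14280962 in the knockdown. Rap1gds1 itself had 181 to 276 counts in control libraries and 30 to 38 in knockdown libraries (fold 0.162, 95% interval 0.136 to 0.195, edgeR adjusted p = 2.72e-19), so each library matched its label. Knockdown replicate 4 stood apart on the axis carrying most variance, with a coordinate of 20.9, where the other 3 lay from 8.86 to 9.58 and the controls from -16.5 to -8.86. Of 12 tubule epithelial markers 7 had enough counts to be tested, 1 fell and none rose, with a summed level of 176 to 189 CPM in controls and of 151 to 159 CPM after knockdown. The one that fell was the water channel Aqp1, from 155 to 127 CPM, while the adhesion molecule Cdh1 reached at most 5 counts in any library. Of 5 fibroblast and pericyte markers 4 were tested and all 4 rose, with a sum of 308 to 334 CPM for controls and 366 to 421 CPM for the knockdown. The part of these markers, and of knockdown replicate 4, in the results below was not tested, beyond the fits without that library. In such bulk RNA, fewer cells of a type and less RNA per cell cannot be told apart. Endothelial markers summed to at most 1.11 CPM in any library, and of 5 leukocyte markers Cd3e was at 0 in all libraries, Ptprc reached 1 count, and Cd68, the 1 tested, did not pass at a list sum of 52.5 to 61.8 CPM over all libraries.

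Of the 8 genes, Casp12 and Cycs rose in the knockdown and none fell. Casp12 rose 1.70-fold and Cycs 1.06-fold. For comparison, 20.2% of the 11576 tested genes passed the same threshold (edgeR quasi-likelihood test, Benjamini-Hochberg adjusted p under 0.05), 11.1% upward and 9.15% downward, so 2 calls in 8 is a share near the background. The median log2 fold change of the 8 was 0.01 and that of all tested genes was -0.0033. Casp8 and Casp6 had negative estimates that did not pass, and Casp2, Casp9, Diablo and Xiap had estimates within 0.07 of 0 on the log2 scale. Fold changes are knockdown relative to control throughout, and CPM is the usual count scaled to library size, here with TMM factors.

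**Figure D1:**
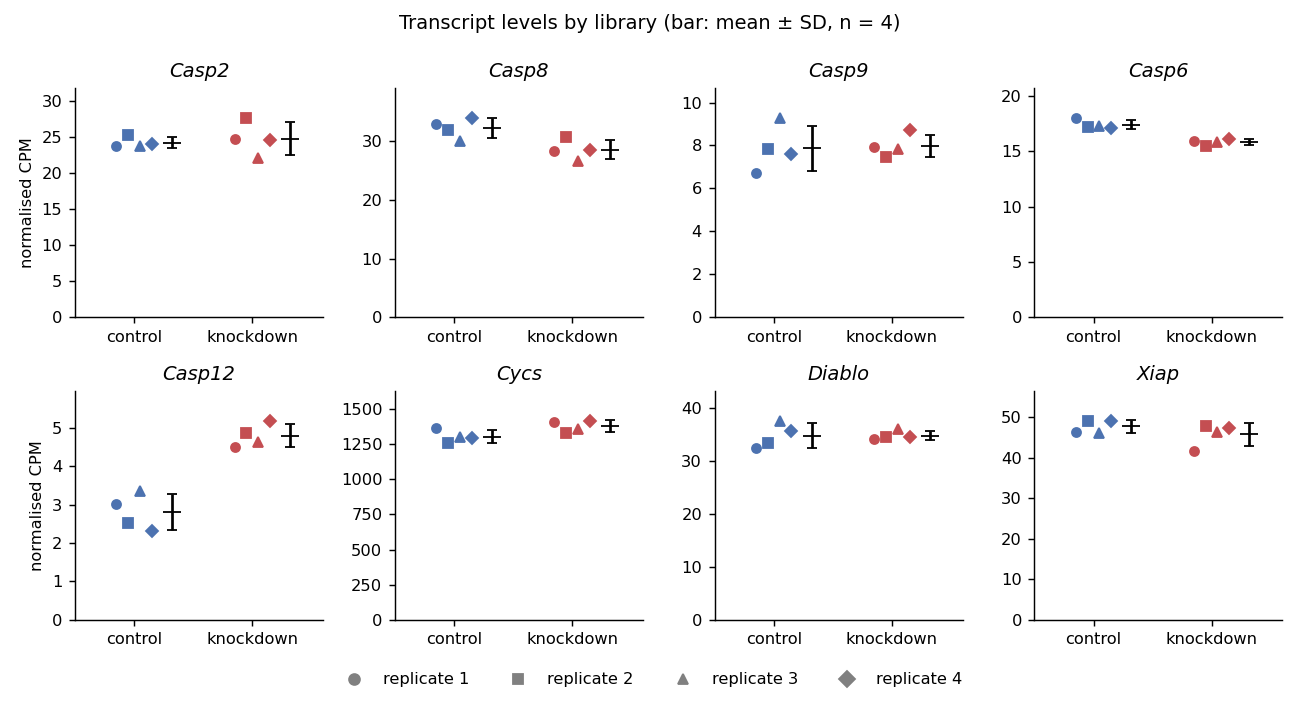
Normalised CPM (vertical axis, starting at 0) of each gene in the 4 control and 4 knockdown libraries, with the mean ± SD as a black bar. Casp12 lies at 2.31 to 3.35 CPM in controls and 4.49 to 5.19 CPM in the knockdown, while the groups of Casp2, Casp9, Diablo and Xiap lie on top of each other.

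**Figure D2:**
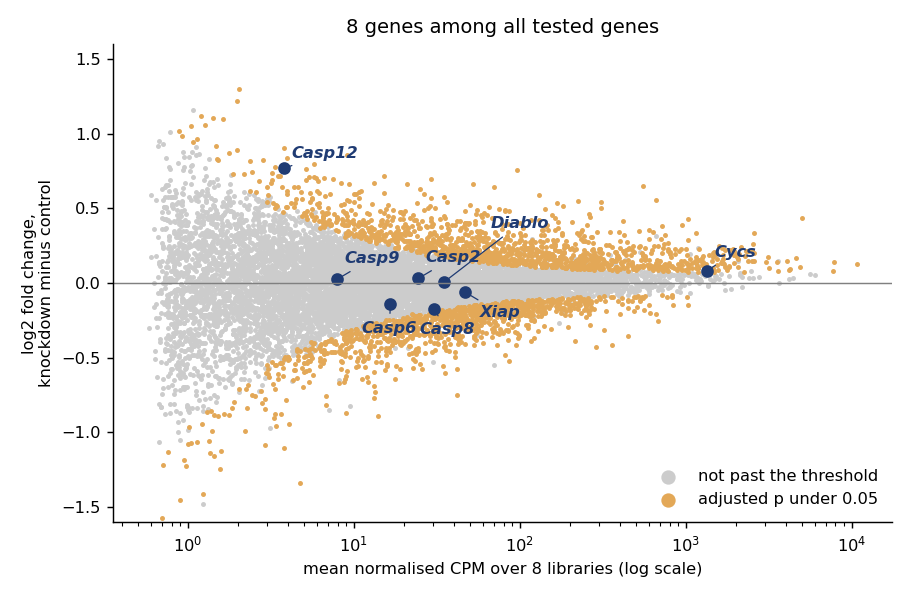
Log2 fold change (vertical axis) against mean normalised CPM (horizontal log axis) for all tested genes, with the 8 genes as large blue points, other called genes in orange and the rest in grey. Rap1gds1 and 1 other gene lie outside the plotted range, and Casp12 at 0.77 is the highest of the 8.

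Levels of different genes were compared on the deposited FPKM, which is per length. Cycs stood far above the rest at 434 ± 13.6 FPKM in controls and 442 ± 11.1 FPKM in the knockdown (SD, n = 4 each). Next came Diablo at 18.3 ± 1.11 and 17.6 ± 0.416 FPKM, followed by Casp8 at 12.8 ± 0.653 and 10.8 ± 0.664 FPKM and Casp6 at 12.03 ± 0.317 and 10.5 ± 0.130 FPKM. The libraries of Casp8 and Casp6 overlapped in both groups, so their order is not resolved. Xiap (7.46 ± 0.30 and 6.86 ± 0.427 FPKM) and Casp2 (7.38 ± 0.214 and 7.03 ± 0.782 FPKM) also overlapped and swapped places between the groups. Casp9 and Casp12 were the lowest, Casp9 at 2.06 ± 0.279 and 2.01 ± 0.121 FPKM and Casp12 at 1.21 ± 0.268 and 1.96 ± 0.167 FPKM. In controls every Casp9 library lay above every Casp12 library (lowest Casp9 1.75, highest Casp12 1.52 FPKM), whereas in the knockdown the ranges were 1.89 to 2.18 for Casp9 and 1.81 to 2.17 for Casp12 and overlapped.

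**Figure D3:**
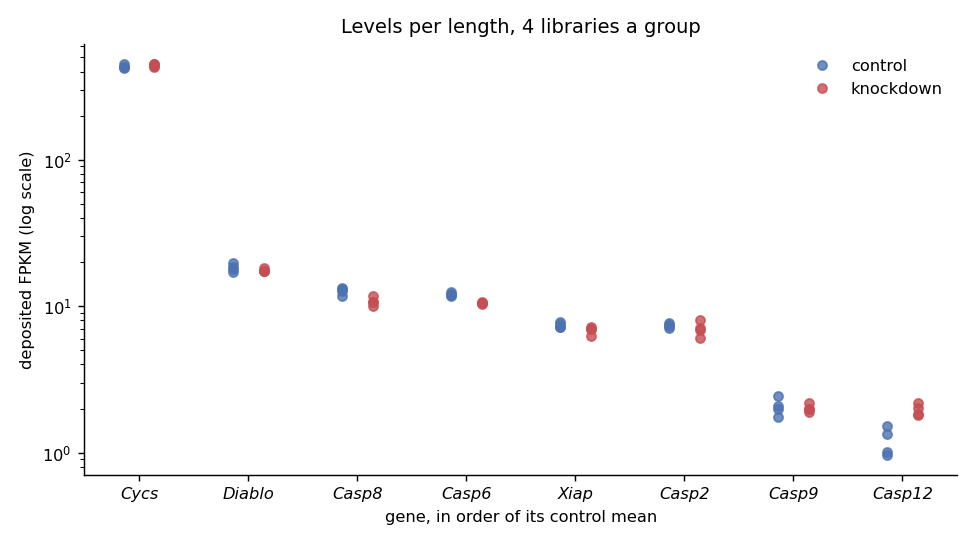
Deposited FPKM (vertical log axis) of the 8 genes in order of the control mean, 4 points a group. Casp12 in the knockdown reaches the range of Casp9. Casp8 and Casp6 lie lower in the knockdown without overlap on this scale, and the other 5 genes overlap between the groups. FPKM lowers the median log2 fold change of all tested genes to -0.05, and the share of all genes without overlap on FPKM was not computed.

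Among the initiators, none passed the test. Casp8, the caspase of the death receptor complex, had 33.0, 32.0, 30.02 and 34.0 CPM in control replicates 1 to 4 and 28.3, 30.6, 26.7 and 28.5 CPM in knockdown replicates 1 to 4. Only control replicate 3 fell within the knockdown range, and knockdown replicate 2 lay above it. The log2 fold change was -0.17 (SE 0.07, edgeR adjusted p = 0.0650), or 0.886-fold with a 95% interval of 0.805 to 0.975. It passed without control replicate 3 (edgeR adjusted p = 0.0447) or without knockdown replicate 2 (edgeR adjusted p = 0.0398). It also passed under scaling by library total (log2 fold change -0.23) and on FPKM (-0.23). Both scalings lower the median of all tested genes, to -0.06 and -0.05, against -0.0033. Casp8 (ncbi_12370) spans 58795233 to 58847503 on chromosome 1 of GRCm38.p6, the build of all positions here.

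Casp9, the apoptosome caspase, measured 6.71, 7.84, 9.28 and 7.61 CPM across controls 1 to 4, against 7.92, 7.46, 7.85 and 8.71 CPM across knockdown replicates 1 to 4, where all 4 values lay inside the control range. Its log2 fold change was 0.02 (SE 0.13, edgeR adjusted p = 0.926), with an interval of 0.853-fold to 1.21-fold. Casp2, which the PIDDosome activates, measured 23.7, 25.3, 23.7 and 24.0 CPM across controls 1 to 4, against 24.8, 27.6, 22.0 and 24.5 CPM across knockdown replicates 1 to 4. The knockdown values were the more scattered and enclosed all 4 controls (edgeR adjusted p = 0.833, log2 fold change 0.03, SE 0.08, interval 0.918-fold to 1.14-fold). Casp9 (ncbi_12371) spans 141793612 to 141815978 on chromosome 4 and Casp2 (ncbi_12366) 42264902 to 42282508 on chromosome 6. Estimates of Casp2 and Casp9 turned negative, at -0.03 each, under scaling by library total.

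Casp6 (ncbi_12368, 129901415 to 129914112 on chromosome 3), the executioner that cleaves nuclear lamin A, measured 18.0, 17.3, 17.3 and 17.1 CPM across controls 1 to 4, against 15.9, 15.5, 15.9 and 16.1 CPM across knockdown replicates 1 to 4. All 4 knockdown libraries lay below all 4 controls. Such separation in either direction was seen in 21.1% of tested genes, and the test gave no call (edgeR adjusted p = 0.281, log2 fold change -0.14, SE 0.09, interval 0.806-fold to 1.03-fold). Expected counts were 200 to 293 in controls and 197 to 223 in the knockdown. The SD between libraries was 0.410 CPM for controls and 0.276 CPM for the knockdown. On log2(FPKM + 0.5) with limma it passed with a log2 fold change of -0.18 (adjusted p = 0.0281). That scale lowers the median of all tested genes, to -0.05.

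Casp12 was the 1 caspase of the 5 that rose. The gene (ncbi_12364) spans 5345442 to 5373034 on chromosome 9 of GRCm38.p6. The 4 controls gave 49, 42, 48 and 27 reads in expected counts, and the 4 knockdown libraries gave 63, 62, 58 and 65. In normalised values these were 3.01, 2.53, 3.35 and 2.31 CPM against 4.49, 4.87, 4.65 and 5.19 CPM, with no overlap between the groups. The means were 2.80 ± 0.469 and 4.80 ± 0.304 CPM (SD, n = 4 each), a log2 fold change of 0.77 (SE 0.18, edgeR adjusted p = 0.00134) or 1.70-fold with a 95% interval of 1.33 to 2.18. The control level was at the 15.5th percentile of tested genes, yet far above the 0.181 to 0.257 CPM that 3 counts correspond to. Casp12 kept its call when each library was left out in turn, with log2 fold changes of 0.70 to 0.86 and adjusted p of at most 0.00709. Without knockdown replicate 4 the value was 0.73.

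The FPKM of Casp12 carried a further uncertainty. Dividing each count by its FPKM and library total gives the length the deposited estimate used, and for Casp12 this ran from 2230 to 2589 bases in controls and from 2264 to 2611 bases in the knockdown. The range was 17.1% of the lowest value, of which rounding of the FPKM accounts for at most 1.04%. Casp2 had a range of 10.7%, and in the other 6 genes the range was at most 1.06%. GENCODE M21 lists 5 Casp12 transcripts of 1065 to 2649 bases and 10 Casp2 transcripts of 384 to 3529 bases. The lengths overlapped between groups for both genes. On FPKM the ratio of group means for Casp12 was 1.62, against 1.71 in CPM. FPKM also leaves out the TMM factors, and Cycs, with a length range of 0.00196%, had ratios of 1.02 and 1.06. The part of length in the gap for Casp12 was not tested.

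Casp12 lies at the end of a cluster with Casp1 (5298517 to 5307281) and Casp4 (5308849 to 5336791) on chromosome 9. Casp1, the caspase of inflammasomes, was listed at 0 counts in all 8 libraries, which allows up to 3 counts each, for counting error only. Casp4, the mouse caspase-11 that senses cytosolic lipopolysaccharide, measured 5.35, 6.39, 5.44 and 5.30 CPM across controls 1 to 4, against 8.06, 8.56, 5.85 and 6.95 CPM across knockdown replicates 1 to 4. Its groups overlapped through control replicate 2 and knockdown replicate 3. It rose with a log2 fold change of 0.38 (SE 0.14, edgeR adjusted p = 0.0458), a call that was lost in 6 of 8 fits with a library left out, where the adjusted p reached 0.167, and with DESeq2 (adjusted p = 0.0793).

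The promoters of the called genes are shown because they are the stretches where regulators of the transcript level can bind. Sequences are from RefSeq on GRCm38.p6, 250 bases before to 50 from the start site, on the strand of the gene and 5′ to 3′, with matches to the searched motifs in capitals. The Casp12 promoter is chr9:5345226-5345525 on the plus strand and the Cycs promoter is chr6:50566520-50566819 on the minus strand.
Casp12 promoter: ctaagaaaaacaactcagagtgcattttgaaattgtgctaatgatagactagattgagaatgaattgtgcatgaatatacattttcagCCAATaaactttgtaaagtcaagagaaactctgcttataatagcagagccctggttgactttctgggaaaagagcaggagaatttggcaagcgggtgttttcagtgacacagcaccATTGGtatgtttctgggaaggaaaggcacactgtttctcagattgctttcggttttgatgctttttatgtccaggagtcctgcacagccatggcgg
Cycs promoter: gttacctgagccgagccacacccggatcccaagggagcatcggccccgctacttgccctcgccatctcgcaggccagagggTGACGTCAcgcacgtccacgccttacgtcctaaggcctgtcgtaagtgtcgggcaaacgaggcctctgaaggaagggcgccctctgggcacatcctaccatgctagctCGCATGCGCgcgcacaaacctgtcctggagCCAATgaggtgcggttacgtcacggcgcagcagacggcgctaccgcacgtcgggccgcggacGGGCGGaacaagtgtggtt
The motifs, searched on both strands, were the NRF1 motif GCGCANGCG, the C/EBP-ATF motif TGATGNAA, the cyclic AMP response element TGACGTCA, the interferon response element GAAANNGAA, the CCAAT box, the E2F motif TTTNGCGC and the GC box GGGCGG. Casp12 held a CCAAT box at 2 places, starting at -162 and -46 from the start site, and no match to the other 6 motifs. A CCAAT box was present in 37.4% of 32851 promoters of the same length. Cycs held the NRF1 motif at -61 (6.25% of all promoters), the cyclic AMP response element at -169 (1.79%), a CCAAT box at -31 and a GC box at 32 (35.7%). The NRF1 motif also occurred in the promoters of Diablo (at -24) and Casp2 (at -22 and 32), both without a change in level past the threshold. All matches are letters in these windows and not measured binding, and the motifs did not overlap each other in the promoters of Casp12 and Cycs.

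Of the transcripts of Cycs, Diablo and Xiap, only that of Cycs rose, by a small amount. Cycs (ncbi_13063, 50562563 to 50566569 on chromosome 6 of GRCm38.p6) measured 1363, 1255, 1304 and 1295 CPM across controls 1 to 4, against 1406, 1331, 1361 and 1418 CPM across knockdown replicates 1 to 4. Control replicate 1 lay within the knockdown range and the other controls below it. The log2 fold change was 0.08 (SE 0.03, edgeR adjusted p = 0.0351), or 1.06-fold with an interval of 1.02 to 1.10. The gene had 15142 to 22145 counts a library, all whole numbers, although processed copies of Cycs exist in the mouse genome. The estimate was 0.02 and did not pass under scaling by library total or on FPKM. The call was also lost with DESeq2 (adjusted p = 0.0513) and without any 1 of control replicates 2, 3 and 4 or knockdown replicates 1 and 4.

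Diablo (ncbi_66593, 123511330 to 123524164 on chromosome 5), whose product Smac is released together with cytochrome c, measured 32.4, 33.4, 37.6 and 35.7 CPM across controls 1 to 4, against 34.2, 34.5, 36.0 and 34.5 CPM across knockdown replicates 1 to 4, all 4 within the control range. The log2 fold change was 0.0042 (SE 0.06, edgeR adjusted p = 0.979), with an interval of 0.916-fold to 1.10-fold, and its sign turned under scaling by library total (-0.05). Xiap (ncbi_11798, 42059613 to 42109664 on chromosome X), the inhibitor that binds caspases directly, measured 46.4, 49.2, 46.1 and 49.1 CPM across controls 1 to 4, against 41.7, 47.8, 46.3 and 47.3 CPM across knockdown replicates 1 to 4. Knockdown replicate 1 was the lowest of the 8 libraries and the remaining knockdown values lay within the control range. The log2 fold change of Xiap was -0.06 (SE 0.06, edgeR adjusted p = 0.515, interval 0.885-fold to 1.04-fold). Leaving out 1 library gave -0.08 to -0.02, the latter without knockdown replicate 1, and the gene passed in none of these 8 fits.

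Ratios within a library do not depend on how libraries are scaled, and 4 were computed as a description without a test. The log2 ratio of Diablo to Xiap in CPM was -0.46 ± 0.116 in controls and -0.39 ± 0.0867 in the knockdown (SD, n = 4 each). For Cycs to Xiap it was 4.77 ± 0.0920 and 4.91 ± 0.117, and for Casp9 to Xiap it was -2.61 ± 0.207 and -2.52 ± 0.128. Casp8 to Casp9, the death receptor initiator against the mitochondrial one, gave 2.04 ± 0.259 and 1.84 ± 0.143. The groups overlapped in all 4 ratios. The differences were 0.06, 0.14, 0.09 and -0.21 in the order given, each smaller in size than the larger of its 2 SDs except for Cycs to Xiap. Leaving out 1 library, an alternative chosen after seeing the data, kept the 4 signs. Every shift was smaller than the larger of the 2 SDs of its ratio. Each difference still moved by more than 1.5 times in at least 1 of its 8 fits, and those fits are given next. Diablo to Xiap was 0.12 without control replicate 3, 0.03 without control replicate 2 and 0.03 without knockdown replicate 1. Casp9 to Xiap was 0.03 without control replicate 1, 0.19 without control replicate 3, 0.05 without knockdown replicate 1 and 0.14 without knockdown replicate 2. Cycs to Xiap was 0.09 without knockdown replicate 1. Casp8 to Casp9 was -0.12 without control replicate 1 and -0.32 without control replicate 3.

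In the wider pathway, 37 of 42 genes from 7 lists were tested, and 5 rose and 4 fell. That is 24.3% called, beside 20.2% of all genes, and the median log2 fold change was -0.01. Casp4, described above with its neighbours, was one of those that rose.

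Among the inhibitors and an XIAP antagonist 1 of 5 tested rose and none fell. This was Birc6, a very large inhibitor of apoptosis protein that can ubiquitylate caspases and Smac, which went from 31.7 ± 1.59 to 41.6 ± 2.56 CPM (edgeR adjusted p = 9.62e-06, log2 fold change 0.39, SE 0.06). Of the adaptors of caspase-2 and caspase-8, 1 of 5 tested fell and none rose. It was Pidd1, the PIDDosome scaffold that activates caspase-2, with 30.03, 34.4, 28.3 and 27.7 CPM across the controls, against 23.6, 26.8, 22.4 and 22.5 CPM across the knockdown libraries (edgeR adjusted p = 0.00104, log2 fold change -0.34, SE 0.08). Its highest knockdown library was below its lowest control, while Casp2 itself showed no such separation.

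No gene passed among the 4 tested apoptosome and released proteins or among the 6 tested genes for maturation or retention of cytochrome c and Smac. By edgeR these lists had 0 calls, with the smallest adjusted p at 0.303 for the flavoprotein Aifm1 and 0.0533 for Hccs, the enzyme that attaches haem to cytochrome c. At an unadjusted p under 0.05, 0 genes of the first list and 1 of the second, Hccs, would pass. DESeq2 called 0 in both lists, with no adjusted p for Oma1. Hccs was at 73.1 ± 3.69 and 79.6 ± 2.75 CPM, a log2 fold change of 0.13 (SE 0.05). It passed with a mean CPM of at least 5 (adjusted p = 0.0470) and in 2 of 8 fits with a library left out, those without control replicate 4 (adjusted p = 0.0209) or knockdown replicate 4 (adjusted p = 0.0400).

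The calpains, cysteine proteases that can cleave caspase-12, moved apart. Capn2, the large subunit of m-calpain, rose from 145 ± 5.35 to 163 ± 4.23 CPM (edgeR adjusted p = 0.000706, log2 fold change 0.17, SE 0.04). Capn1, the large subunit of µ-calpain, fell from 36.3 ± 2.15 to 30.7 ± 3.45 CPM (edgeR adjusted p = 0.0123, log2 fold change -0.24, SE 0.07) and lost its call without knockdown replicate 1 or knockdown replicate 4. The other 4 genes of that list did not pass.

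Of the 8 genes in the list of caspase substrates and a substrate's partner, 1 rose and 2 fell. Lmna, encoding the lamin A that caspase-6 cleaves, rose from 368 ± 10.3 to 417 ± 5.98 CPM (edgeR adjusted p = 1.66e-05, log2 fold change 0.18, SE 0.03). Xkr8, a scramblase that exposes phosphatidylserine after caspase cleavage, measured 11.32, 12.003, 11.2 and 8.64 CPM across controls 1 to 4, against 7.06, 6.99, 7.21 and 6.55 CPM across knockdown replicates 1 to 4. The groups did not overlap in CPM, and at a log2 fold change of -0.64 (SE 0.12, edgeR adjusted p = 9.60e-05) it had the largest change in size among the 9 called genes of the 7 lists. In FPKM the Xkr8 groups overlapped, with control replicate 4 at 2.34 and knockdown replicate 1 at 2.39. The length that the FPKM of Xkr8 used ran from 2901 to 4251 bases over the libraries. On log2(FPKM + 0.5) with limma Xkr8 still passed (adjusted p = 0.0127). Acin1, a nuclear substrate linked to chromatin condensation, fell by 0.10 on the log2 scale (SE 0.03, edgeR adjusted p = 0.0358), has counts that are not whole, and lost its call in 6 of 8 fits with a library left out.

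**Figure D4:**
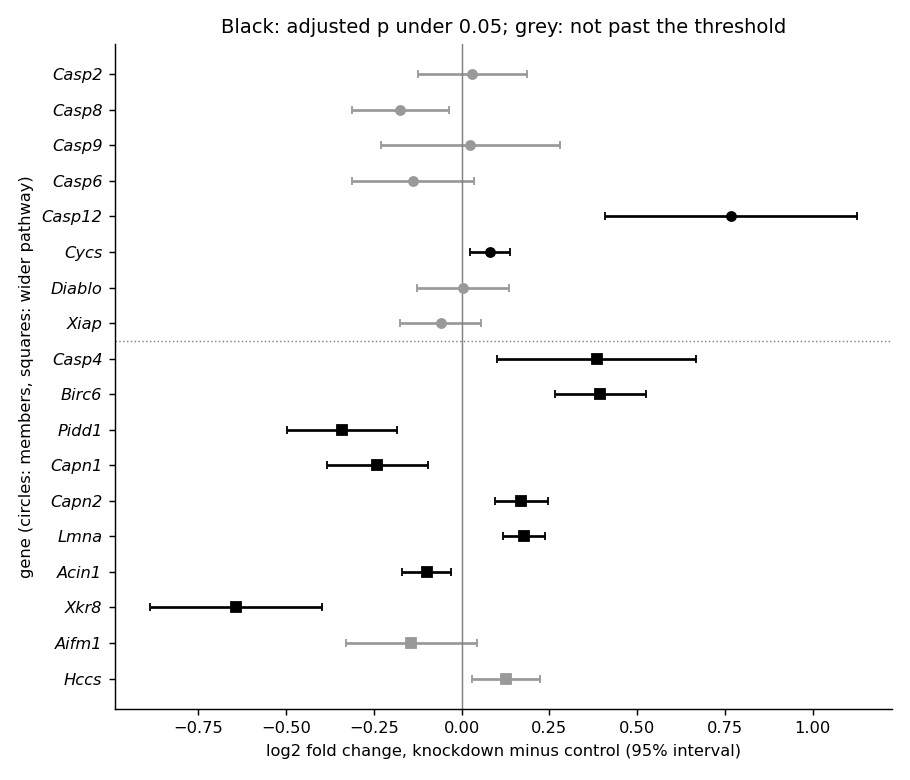
Log2 fold change with its 95% interval (horizontal axis) for the 8 genes (circles) and 10 genes of the wider pathway (squares), black where the adjusted p is under 0.05. Casp12 has the highest estimate at 0.77 and the widest interval, and Xkr8 the lowest at -0.64.

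Genes with the profile most like that of a called member were found by the root mean square distance between log2 CPM profiles, each centred on its mean, over 8 libraries and 8765 genes with a mean of at least 5 CPM. Nearest to Casp12 were Inpp5a (distance 0.112), Actg2 (0.123) and 9930111J21Rik1 (0.150), beside 0.425 for the spread of Casp12 around its own mean. These 3 genes had log2 fold changes of 0.68, 0.70 and 0.67, and all passed (edgeR adjusted p at most 0.000652). Nearest to Cycs were Mrps18b (0.0165), Clcf1 (0.0194) and Plod3 (0.0239), beside a spread of 0.0564, with log2 fold changes of 0.07, 0.10 and 0.11. Mrps18b (edgeR adjusted p = 0.252) and Clcf1 (edgeR adjusted p = 0.112) did not pass, while Plod3 did (edgeR adjusted p = 0.00351). The distances describe these 8 libraries and include the difference between the groups.

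**Figure D5:**
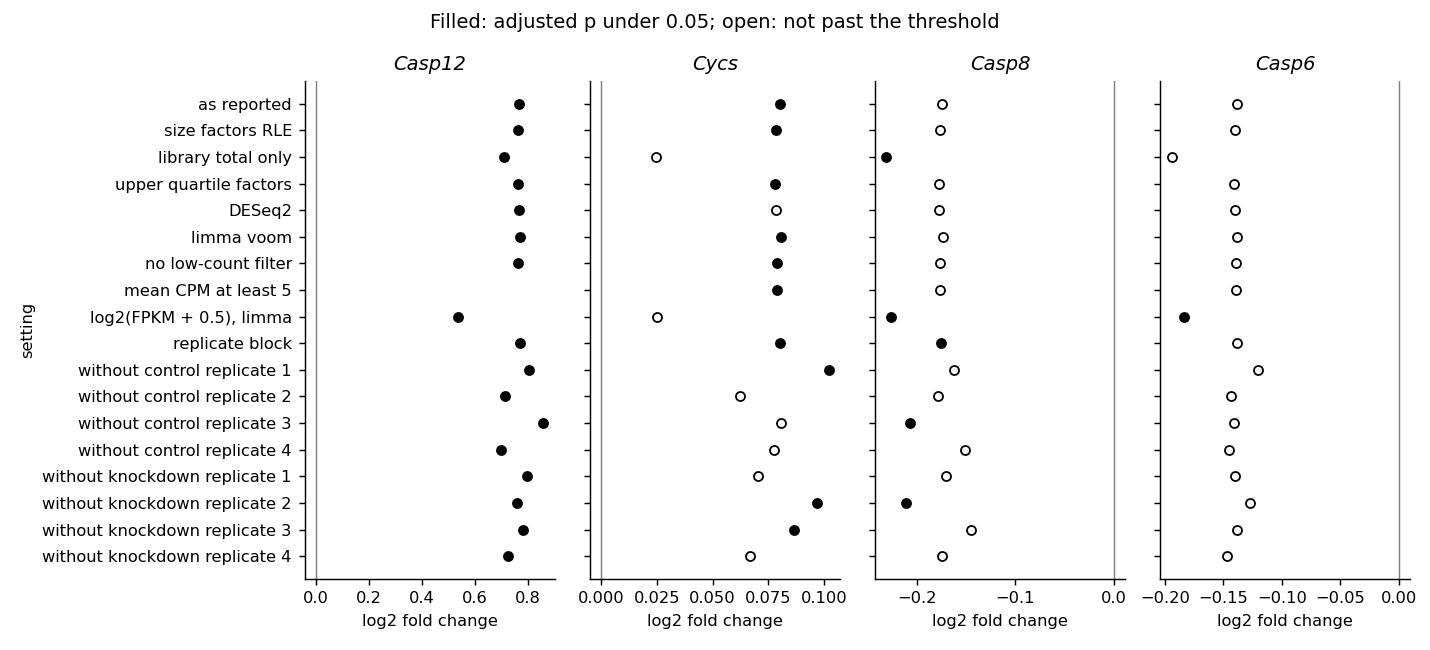
Log2 fold change (horizontal axis, a scale for each gene) of Casp12, Cycs, Casp8 and Casp6 under each setting (vertical axis), filled where the adjusted p is under 0.05. Casp12 is filled under every setting in which it was tested, Cycs and Casp8 change between filled and open, and Casp6 is filled only on FPKM.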

How the data were processed

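Libraries were made from TCMK-1 cells by oligo(dT) selection with a NEBNext Ultra kit, per the labels' protocols. The 4 control and 4 knockdown samples were grouped by their titles. Expected counts and FPKM of each gene were deposited by the authors in 1 table, per the file headers. RSEM, HISAT2 2.4, StringTie 1.3.1, fastp 0.18.0, Bowtie2 2.2.8, edgeR and DESeq2 are listed with no role, and GRCm38.p6 as the build, per the submitters' processing notes. No annotation release or strand setting could be taken from these sources.

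Expected counts were rounded and fitted across all genes by edgeR 4.0.16 (R 4.3.3; filterByExpr, TMM factors, robust quasi-likelihood F-test on group, two-sided), adjusted over 11576 tested genes at a threshold of 0.05. Each SE is the log2 fold change divided by the root of F. Alternatives used other size factors and filters, DESeq2 1.42.0, voom and log2(FPKM + 0.5) in limma 3.58.1, a replicate block, a stricter threshold of 0.01 and fits lacking 1 library. On simulated counts (11485 genes) the edgeR fit recovered 22 of 49 genes given a log2 change of 0.3, 36 of 49 given 0.6 and 47 of 50 given 1, and called 7 of 11287 left alone. No pair of replicates was a duplicate (chi-square per degree of freedom 1.94 to 3.98).

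Coordinates and promoters are from RefSeq tables of GRCm38.p6, matched on gene identifiers for all 8 genes, and coding stretches from GENCODE M21. Named genes are the 8 members, Rap1gds1, called genes of the wider lists or the gene with the smallest adjusted p of a list without a call, and the 3 nearest profiles of each called member. Some genes of the lists that this rule names are counted but not reported here by name. The members and lists were chosen with earlier results of these data known.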

Additional observations from a re-analysis of the deposited data

Results flagged for a closer look

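A single library stood far from its group in 2 of the 48 groups looked at, and chance does this in about 1 of 20 groups. Casp4 in controls was at 6.39 CPM in replicate 2, against 5.30 to 5.44 CPM in the other 3 libraries. Hccs in controls was at 78.6 CPM in replicate 4, against 71.1 to 71.5 CPM in the other 3 libraries. None of the 8 genes had such a library in either group. Without control replicate 2 the log2 fold change of Casp4 was 0.46 (edgeR adjusted p = 0.0328), and without control replicate 4 that of Hccs was 0.16 and passed (edgeR adjusted p = 0.0209), as it also did without knockdown replicate 4 (edgeR adjusted p = 0.0400).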

How the results depend on the processing

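The 2344 calls over all genes became 1405 at a threshold of 0.01 and were between 1835 and 2184 with a library left out. Of the 8 genes 2 were called, but 1 (Casp12) with DESeq2, 1 (Cycs) with a mean CPM of at least 5, which removes Casp12, and 1 (Casp12) at the threshold of 0.01. Scaling by library total called 2, with Casp12 up and Casp8 down. FPKM called 3, with Casp12 up and Casp8 and Casp6 down. Cycs was called in neither. With a library left out the number of the 8 genes called was 1 to 3. Of the wider genes 9 were called, 5 at the threshold of 0.01 and 7 to 9 with a library left out. The estimates of 3 genes lay near 0 and changed sign. Casp2 was -0.026 under scaling by library total, -0.071 on FPKM and -0.026 to 0.081 with a library left out. Casp9 was -0.032, -0.022 and -0.049 to 0.114 in the same order, and Diablo -0.0516, -0.0518 and -0.030 to 0.045. Both of these scalings leave out the TMM factors, which were 1.01 to 1.03 in controls and 0.974 to 0.987 in the knockdown. Both lower the median of all genes, to -0.06 and -0.05, and why the factors differ was not tested. Scaling by library total gave 766 rises and 1951 falls over all genes, and FPKM 598 and 1508, against 1285 and 1059. The ratio of group means was 0.875 for Casp6 and 1.02 for Cycs in FPKM, and 0.909 and 1.06 in CPM. Birc6 lost its call on FPKM (adjusted p = 0.0530). The replicate block gave 2660 calls over all genes, 3 of the 8 genes (Casp8 added, adjusted p = 0.0488) and 10 of the wider genes (Hccs passed, adjusted p = 0.0379). Same-numbered libraries had correlations of 0.0562, 0.0828, -0.0365 and 0.0560 for numbers 1 to 4, none over 0.1, and the labels give no pairing, so they were not treated as pairs. As a hint from the data, the libraries numbered 1, 2 and 4 correlated best with their own number in both groups, which is the same correlation seen from each side. Both libraries numbered 3 did not. Among the 8 genes the intervals were widest for Casp12 (1.33-fold to 2.18-fold) and Casp9 (0.853-fold to 1.21-fold), and the part of depth in this was not tested.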
